A study of Mus musculus with 6 samples.

Results

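The Fraser complex is a set of large extracellular proteins that ties embryonic epithelium to the tissue beneath it. The 6 genes described here were taken by name as genes of this complex, of the epithelial basement membrane. They are Fras1, Frem1, Frem2, Frem3, Grip1 and Npnt, and all 6 were found among the 34989 genes of the deposited transcript tables. RNA was measured in mouse handpads, the distal forelimb buds that form the digits, at embryonic stage E14.5. The groups were 3 Grhl3 knockout samples (genotype Grhl3KO) and 3 wild-type samples (WT), all labelled C57BL/6. Grhl3 encodes a DNA-binding factor of the grainyhead family that acts in surface epithelium, and the study concerns digit separation. The sources used here do not say how the allele was made, whether all cells lack the gene, or whether a sample was 1 embryo or a pool, so each p-value reflects only how far these libraries scatter, which may be partly technical.

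In the mouse, Fras1, Frem1 and Frem2 form a complex under the epidermis in which each protein depends on the others to stay in place. The complex anchors epithelium to mesenchyme before collagen VII takes over that role. Loss of Fras1, Frem2 or Grip1 gives embryonic skin blisters, hidden eyes, missing kidneys and fused digits in mice, and mutations of the human genes cause Fraser syndrome. Npnt encodes nephronectin, a ligand of integrin α8β1 that the complex holds in the basement membrane, and its loss in mice is best known for missing kidneys. Fras1 and Frem2 are known as epithelial products and Frem1 largely as a mesenchymal one. In a bulk sample, fewer cells of a type and less RNA per cell cannot be told apart.

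None of the 6 genes was called changed in the knockout handpads. The largest difference was in Frem2, which averaged 74.0 ± 3.76 CPM (normalised read count scaled to library size) in knockout libraries and 55.8 ± 19.8 CPM in wild-type libraries (SD, n = 3 each), and it did not pass the test. Frem1 was the only member whose groups did not overlap, at 74.2 ± 0.738 CPM in knockout and 67.3 ± 7.24 CPM in wild-type libraries (SD, n = 3 each). The same held for 12.9% of all tested genes, and per transcript length the Frem1 groups did overlap. Fras1, Frem1, Frem2 and Npnt varied more between the 3 wild-type libraries than between the 3 knockout libraries.

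Promoter windows are shown because the gene knocked out, Grhl3, encodes a factor that binds DNA at letters close to AACCGGTT. RefSeq sequences of GRCm38.p6, the build named mm10, held 9 windows for 5 of the members and none for Fras1, whose promoter was not searched. Each window printed here gives 250 bases before the start and the first transcribed base of the annotated transcript that begins there, 5′ to 3′ on the minus strand, which both genes are transcribed from. Capitals mark the first transcribed base and, in Frem2, a run that fits AACCNGTT. The Frem2 window is chr3:53657355-53657605, and its run begins 190 bases before the start. The Frem1 window is chr4:83021102-83021352 at the annotated inner start, that of Frem1-201. It is shown because estimated Frem1 counts are divided below between transcripts annotated to begin there and at an outer start. Whether transcription begins at the inner start was not tested.
Frem2: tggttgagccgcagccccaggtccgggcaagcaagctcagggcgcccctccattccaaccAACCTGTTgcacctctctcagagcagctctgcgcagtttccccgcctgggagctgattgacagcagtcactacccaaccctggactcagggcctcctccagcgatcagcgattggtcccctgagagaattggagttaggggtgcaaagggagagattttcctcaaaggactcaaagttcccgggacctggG
Frem1 inner start: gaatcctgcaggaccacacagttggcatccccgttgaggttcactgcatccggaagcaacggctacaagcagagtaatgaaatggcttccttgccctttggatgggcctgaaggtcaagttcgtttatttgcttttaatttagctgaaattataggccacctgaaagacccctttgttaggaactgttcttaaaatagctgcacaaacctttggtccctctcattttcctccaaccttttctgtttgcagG
AACCGGTT and AACCNGTT were searched on both strands of the full 300-base windows, and the second covers the first. AACCGGTT was in 0 of the 9 windows and in 0.146% of 32817 mouse promoter windows of that length. AACCNGTT was in 1 of the 9, the Frem2 window, and in 2.08% of the mouse windows. A match is a description of letters, not of binding.

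The libraries held 47642524 to 56037639 estimated counts in the knockout group and 38052692 to 48984542 in the wild-type group. Grhl3, the check of the labels, measured 3.11, 2.86 and 2.95 CPM in knockout libraries, against 14.3, 45.7 and 18.6 CPM in wild-type libraries. The log2 fold change was -3.14 (adjusted p = 0.0221 by edgeR), without overlap of the groups. Wild-type replicate 1 stood apart: transcripts weighted by count averaged 3148 bases there, below the 3347 to 3480 bases of knockout libraries and the 3601 and 3625 bases of the other wild-type libraries. Y-linked genes summed to 3.38 to 4.43 CPM in the knockout libraries, to 5.36 CPM in wild-type replicate 1 and to 289.6 and 341.2 CPM in wild-type replicates 2 and 3. Genotype followed it once wild-type replicate 1 was left out, so genotype and Y-linked expression cannot be told apart in that fit. Of 20 epithelium markers 17 had positive fold changes, at a median log2 fold change of 0.63, and their summed level was 3678 to 5107 CPM in knockout and 2148 to 3646 CPM in wild-type libraries. No epithelium marker was called by the edgeR quasi-likelihood test, limma-voom or limma-trend. Before adjustment (edgeR) 10 had a p under 0.05, each with a higher level in the knockout, against 7.22% of all genes in either direction. DESeq2 called 9 higher and the likelihood ratio test 6, against 212 of 16928 and 185 of 16938 over all genes. The 4 with the smallest p were St14, Krt14, Wnt10a and Epcam, of which St14, a membrane protease, averaged 36.2 ± 4.07 CPM in knockout and 16.5 ± 4.42 CPM in wild-type libraries (SD, n = 3 each; adjusted p = 0.059, edgeR). The authors' deposited comparison, which gives a likelihood ratio score, lists these 4 at false discovery rates of 3.53e-05, 1.49e-05, 0.0078 and 0.00222.

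Per transcript length, Npnt was the most abundant member and Frem3 was barely detected. The TPM scale corrects for transcript length and allows genes to be compared. Npnt measured 19.4, 20.7 and 18.7 TPM in knockout libraries, against 14.9, 25.0 and 21.7 TPM in wild-type libraries. Frem1 measured 11.4, 12.6 and 12.8 TPM in knockout libraries, against 7.91, 10.9 and 13.8 TPM in wild-type libraries. Npnt ranked first and Frem1 second in 6 of 6 libraries, and Npnt's lowest library lay above Frem1's highest. Frem2 averaged 8.66 ± 0.969 TPM in knockout and 7.46 ± 3.04 TPM in wild-type libraries, a range that overlaps that of Frem1 (SD, n = 3 each). Fras1 averaged 6.35 ± 0.394 TPM in knockout and 5.98 ± 2.51 TPM in wild-type libraries (SD, n = 3 each). Grip1 averaged 5.76 ± 0.770 TPM in knockout and 5.67 ± 0.849 TPM in wild-type libraries (SD, n = 3 each). Frem2 lay above Fras1 in 6 of 6 libraries over all transcripts, while Grip1 changed places with both. Frem3 ranked last in 6 of 6 libraries, at 0.0804, 0.078 and 0.0322 TPM in knockout and 0.0478, 0.119 and 0.0713 TPM in wild-type libraries.

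Part of these sums came from transcripts with no coding annotation. Over protein-coding transcripts alone, Frem1 averaged 8.03 ± 0.238 TPM in knockout and 7.82 ± 1.71 TPM in wild-type libraries, and Frem2 averaged 5.50 ± 0.189 TPM in knockout and 4.41 ± 1.93 TPM in wild-type libraries (SD, n = 3 each). On that scale the order of that pair turned round, with Fras1 above Frem2 in 6 of 6 libraries, while Npnt and Frem1 stayed on top and Frem3 last.

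**Figure D1:**
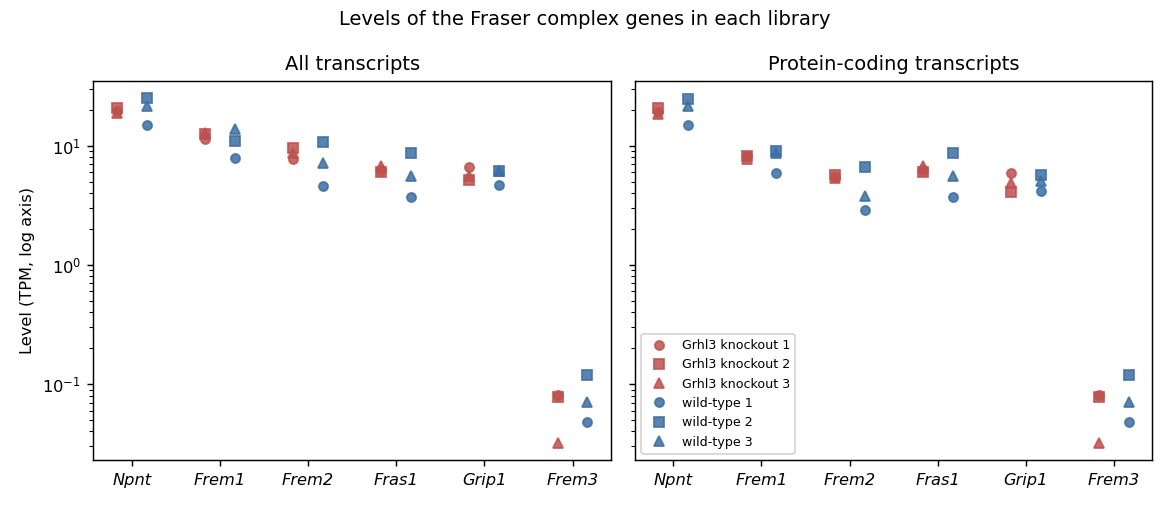
Levels of the 6 genes on a log TPM axis, each point 1 library, summed over all transcripts (left) and over protein-coding transcripts (right), with knockout libraries left of wild-type ones. Npnt and Frem1 stand above the other members in every library, and Frem3 lies below 0.12 TPM.

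Fras1 (ENSMUSG00000034687.8, chromosome 5, 96373955 to 96784728, plus strand, mm10), the founding member, encodes a membrane protein with a long extracellular chain. It measured 93.1, 93.3 and 109.3 CPM in knockout libraries, against 63.3, 117.6 and 76.5 CPM in wild-type libraries. The knockout libraries lay inside the wild-type range, with wild-type replicate 1 lowest and wild-type replicate 2 highest. The fold change was 1.15 (95% interval 0.829 to 1.59, adjusted p = 0.957, edgeR). A single coding transcript of 15848 bases, Fras1-201, held nearly all of its counts.

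Frem2 (ENSMUSG00000037016.11, chromosome 3, 53513938 to 53657355, minus strand, mm10) encodes a membrane relative of Fras1. It measured 69.8, 77.1 and 75.1 CPM in knockout libraries, against 41.5, 78.4 and 47.3 CPM in wild-type libraries. All knockout libraries lay above wild-type replicates 1 and 3 and below wild-type replicate 2. The fold change was 1.33 (95% interval 0.947 to 1.86, log2 fold change 0.41, SE 0.213, adjusted p = 0.785, edgeR). Without wild-type replicate 2 the log2 fold change was 0.74 (adjusted p = 0.0583, edgeR), and without wild-type replicate 1 it was 0.23 (adjusted p = 0.536).

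Frem1 (ENSMUSG00000059049.14, chromosome 4, 82897920 to 83052339, minus strand, mm10) encodes a secreted partner of both. It measured 73.3, 74.7 and 74.5 CPM in knockout libraries, against 59.1, 72.5 and 70.5 CPM in wild-type libraries. Every knockout library lay above every wild-type library, though the lowest knockout library exceeded wild-type replicate 2 by little. Groups did not overlap in 12.9% of all tested genes, and on the TPM scale the Frem1 groups did overlap. The fold change was 1.10 (95% interval 0.944 to 1.29, adjusted p = 0.895, edgeR).

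Grip1 (ENSMUSG00000034813.17, chromosome 10, 119453830 to 120087261, plus strand, mm10) encodes a PDZ-domain scaffold inside the cell that brings Fras1 and Frem2 to the basal surface. It measured 22.5, 18.6 and 20.4 CPM in knockout libraries, against 18.9, 19.5 and 19.7 CPM in wild-type libraries. The narrow wild-type range lay within the knockout range. The fold change was 1.06 (95% interval 0.89 to 1.26, adjusted p = 0.975, edgeR). Helb, a coding gene on the opposite strand, overlaps the end of the Grip1 locus, and the strand setting of the counting is not given in the sources used here, so reads from that stretch are uncertain.

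Npnt (ENSMUSG00000040998.18, chromosome 3, 132881745 to 132950291, minus strand, mm10) measured 78.8, 85.9 and 80.7 CPM in knockout libraries, against 69.4, 91.3 and 80.0 CPM in wild-type libraries. The knockout range lay inside the wild-type range. The fold change was 1.02 (95% interval 0.855 to 1.22, adjusted p = 0.994, edgeR). Npnt-202, a coding transcript of 4619 bases, held nearly all of its counts.

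Frem3 (ENSMUSG00000042353.9, chromosome 8, 80611080 to 80695356, plus strand, mm10), a relative of Frem2, had 23, 22 and 11 counts in knockout libraries, against 12, 31 and 15 counts in wild-type libraries. The groups overlapped, and the fold change was 0.842 with a 95% interval from 0.421 to 1.68 (adjusted p = 0.987, edgeR). At this depth a 1.5-fold difference in either direction lay within the interval.

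**Figure D2:**
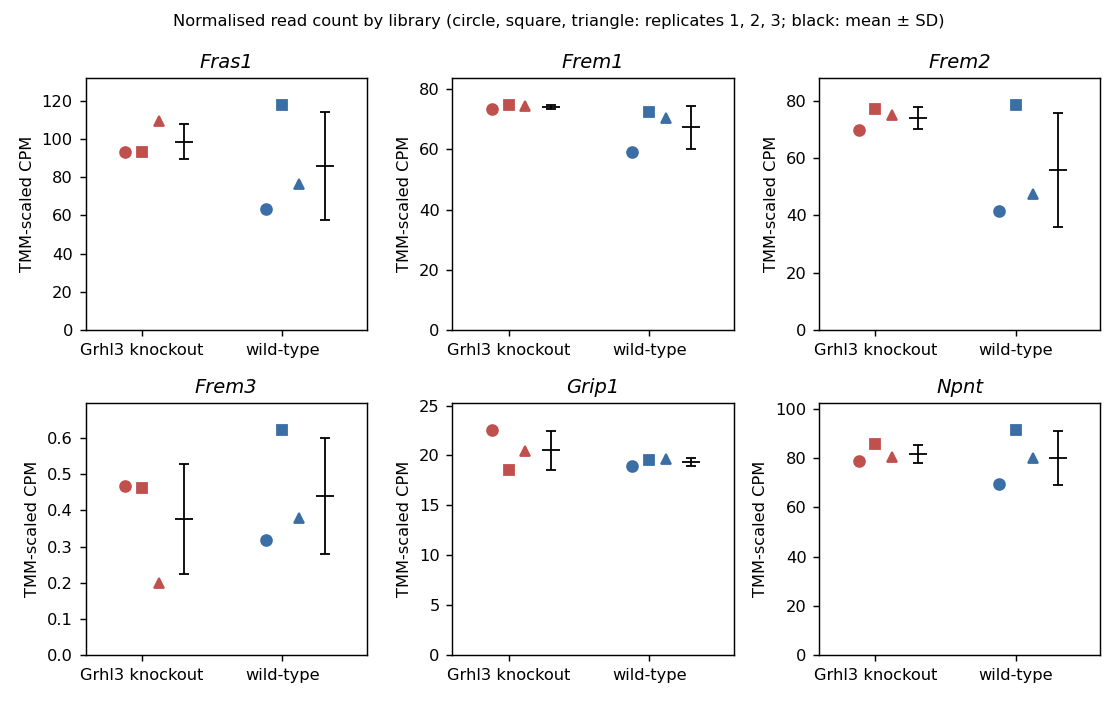
Normalised read count of each gene by library, on axes that start at 0, with knockout left of wild-type and the mean ± SD in black. The knockout libraries of Fras1, Frem2 and Npnt lie between wild-type replicates 1 and 2, and those of Frem1 lie above all wild-type libraries.

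Counted together, 0 of the 6 members rose and 0 fell at a false discovery rate (FDR, Benjamini-Hochberg) under 0.05 by the edgeR quasi-likelihood test, against 0.431% of the 16938 genes tested (0.348% higher and 0.0827% lower). At an unadjusted p under 0.05 the count was also 0, against 7.22% of all genes, and DESeq2, limma-voom, the likelihood ratio test and limma-trend each called 0. All 6 passed the filter on low counts. The median log2 fold change of the members was 0.11, with 5 positive and 1 negative, against -0.004 for all genes tested. The authors' deposited table of the comparison lists 941 genes with p-values up to 0.0506, and 0 of the 6 members are among them. In the main test, with genotype as the only term, the intervals of Fras1, Frem1, Frem2, Grip1 and Npnt exclude a 2-fold change in either direction. This holds under the spread these libraries showed, and the interval of Frem3 does not exclude a 2-fold fall. Under other scalings or with a Y-linked term, intervals were not compared with a 2-fold change. With that term the Frem2 log2 fold change was 0.87, nearer to a 2-fold rise than the 0.41 of the main test.

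The signs of the small differences in Fras1, Frem1, Frem2, Grip1 and Npnt depended on the scaling, while that of Frem3 stayed negative. With libraries scaled so that the epithelium markers were level, the log2 fold changes of Fras1, Frem1 and Frem2 were -0.27, -0.39 and -0.05, those of Grip1 and Npnt were -0.47 and -0.48, and that of Frem3 was -0.69. The median of all genes moved to -0.55 from -0.004 under that scaling, so the members other than Frem3 lay above it, as with TMM, and again 0 of 6 were called (edgeR). Per 1000 CPM of the summed epithelium markers, Fras1 had 18.2, 25.4 and 22.5 CPM in knockout libraries, against 29.5, 32.3 and 33.6 CPM in wild-type libraries. Fras1, Frem3, Grip1 and Npnt did not overlap on this ratio, each lower in the knockout at the smallest p that an exact two-sided permutation test of 3 against 3 can give, 0.1. Of all tested genes, 45.9% were lower without overlap on it. Krt5, Krt14 and Krt15 made up 58.1% to 60.2% of the marker sum in knockout and 46.7% to 52.6% in wild-type libraries. The part of epithelial content in the members' values was not tested.

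**Figure D3:**
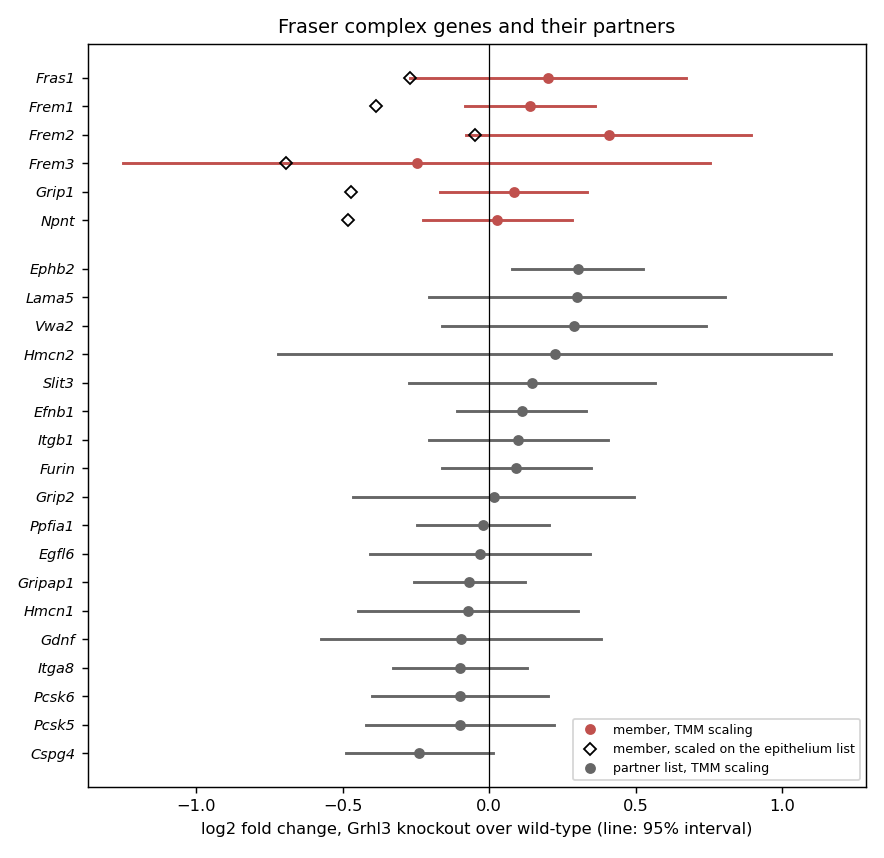
Log2 fold change of knockout over wild-type with 95% intervals for the 6 members (top) and the 18 partner genes (below), and the members' values with libraries scaled on the epithelium list (open diamonds). The members' intervals all include 0, and their diamonds all lie below 0.

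The proteins that work with the complex were taken as a list of 18 genes. By the edgeR quasi-likelihood test 0 of 18 were called in either direction, and DESeq2, limma-voom, the likelihood ratio test and limma-trend each called 0. At an unadjusted p under 0.05 (edgeR) 1 was higher, against 7.22% of all genes in either direction. That gene was Ephb2, an ephrin receptor whose signalling partners bind Grip1, at 139.1 ± 3.74 CPM in knockout and 112.9 ± 11.0 CPM in wild-type libraries (SD, n = 3 each; adjusted p = 0.436, edgeR). Over the list the log2 fold changes had a median of -0.003, with 9 positive and 9 negative. Itga8, the α8 chain of the nephronectin receptor, measured 42.2, 35.2 and 37.5 CPM in knockout libraries, against 41.5, 38.9 and 42.5 CPM in wild-type libraries. Its log2 fold change was -0.10 (adjusted p = 0.956, edgeR), and that of its partner chain Itgb1 was 0.10 (adjusted p = 0.977). Vwa2, which encodes AMACO, a matrix protein that binds the complex, averaged 11.6 ± 2.50 CPM in knockout and 9.45 ± 1.80 CPM in wild-type libraries (SD, n = 3 each), and its groups overlapped. Egfl6, the closest relative of Npnt, had a log2 fold change of -0.03, and Grip2, the relative of Grip1, one of 0.01. Of the proteases that cleave proteins on their way out of the cell, Furin, Pcsk5 and Pcsk6 had log2 fold changes of 0.09, -0.10 and -0.10. The values of Lama5, a laminin chain of epithelial basement membrane, were 0.30, of Hmcn1 -0.07 and of Hmcn2, both hemicentins, 0.22 on the same scale. The remaining log2 fold changes were 0.11 for Efnb1, an ephrin that binds Grip1, 0.15 for Slit3, -0.02 for Ppfia1, -0.07 for Gripap1, -0.10 for Gdnf and -0.24 for Cspg4, a proteoglycan that shares a repeat type with the Frem proteins.

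The other components of basement membranes were taken as a list of 35 genes. Of these 0 were called by the edgeR quasi-likelihood test, limma-voom or limma-trend, while DESeq2 and the likelihood ratio test each called 2 higher. Over all genes those 2 tools called 212 of 16928 and 185 of 16938 higher. Before adjustment (edgeR), 5 had a p under 0.05 with higher and 1 with lower values, against 7.22% of all genes in either direction. The median log2 fold change was 0.18. Col4a6, an epithelial collagen IV chain, measured 19.5, 18.4 and 22.6 CPM in knockout libraries, against 7.77, 13.7 and 10.1 CPM in wild-type libraries. Every knockout library lay above every wild-type library (adjusted p = 0.153, edgeR), and DESeq2 and the likelihood ratio test called Col4a6 higher. The authors' deposited comparison, which gives a likelihood ratio score, lists it at an FDR of 0.00623. Col4a5 and Lama3 also did not overlap in CPM, as 12.9% of all tested genes did not, but overlapped in TPM, and their log2 fold changes were 0.56 and 0.68 (adjusted p = 0.502 and 0.516, edgeR).

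Within the set, the highest Pearson's r over the 6 libraries was that of Fras1 and Frem2. Their log2 CPM correlated at Pearson's r = 0.933 (exact permutation p = 0.0139, adjusted p = 0.167 over 15 pairs) and Spearman's rho = 0.943 (exact permutation p = 0.0167, adjusted p = 0.125). Without the 2 libraries farthest from the median of Fras1, r was 0.869 over 4 libraries. Frem2 and Npnt had the same rho of 0.943, and Fras1 and Frem1 reached r = 0.88 without the 2 farthest libraries. Of the 15 pairs, 0 passed after adjustment, and libraries share depth and composition. Among 12937 other genes, the best match to Fras1 was Itgb4, the integrin chain of hemidesmosomes, at r = 0.989, followed by Mogs at 0.986. For Frem2 the best matches were Slc16a13 and Cog1 (0.997 and 0.996), for Frem1 Dab1 and Abcb1b (0.995 and 0.992), and for Npnt Gtf2ird1 and Gon4l (0.996 and 0.996). For Grip1 they were Cald1 and Acvr1 (0.987 and 0.981) and for Frem3 Kif26b and Cadps2 (0.978 and 0.978). These are the highest of many correlations over 6 libraries, so they are given as a description.

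In Frem1 and Grip1 the division of counts among transcripts varied widely between libraries. Of the 8 annotated Frem1 transcripts, those that begin at the outer start or the inner start printed above held nearly all counts. Transcripts from the outer start took 69.3%, 45.8% and 42.4% of Frem1 counts in knockout libraries, against 24.4%, 61.7% and 56.9% in wild-type libraries. The groups overlapped (52.5 ± 14.6% in knockout and 47.7 ± 20.3% in wild-type libraries, SD, n = 3 each; exact two-sided permutation p = 0.8). Of the 9307 bases of Frem1-201, the inner-start transcript, 57 are in no other annotated Frem1 transcript in the tables. The outer transcripts begin at 83052167 or 83052339. Frem1-202 alone took 2324, 551 and 717 estimated counts in knockout libraries, against 33.6, 1716 and 361 in wild-type libraries. It holds 0 bases found in no other annotated Frem1 transcript, and Frem1-208 holds 10. Their estimated counts thus depend on how reads from shared bases were divided.

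Grip1 has 16 annotated transcripts with 3 main start regions. The second region took 38.1%, 52.4% and 43.4% of Grip1 counts in knockout libraries, against 29.6%, 41.4% and 17.2% in wild-type libraries, and the groups overlapped (exact two-sided permutation p = 0.2). The third start region took 27.3%, 17.7% and 21.8% in knockout libraries, against 37.4%, 23.7% and 30.8% in wild-type libraries (exact two-sided permutation p = 0.2). The mean difference was 15.3 percentage points in the second region (SD 7.23 in knockout and 12.1 in wild-type libraries, n = 3 each) and -8.33 in the third (SD 4.84 in knockout and 6.84 in wild-type libraries, n = 3 each). With 3 against 3 the smallest exact permutation p is 0.1. Tested per transcript, 0 of the 22 member transcripts that passed the filter were called by the edgeR quasi-likelihood test, 0 had an unadjusted p under 0.05, and 1 of 47052 transcripts was called in all.

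**Figure D4:**
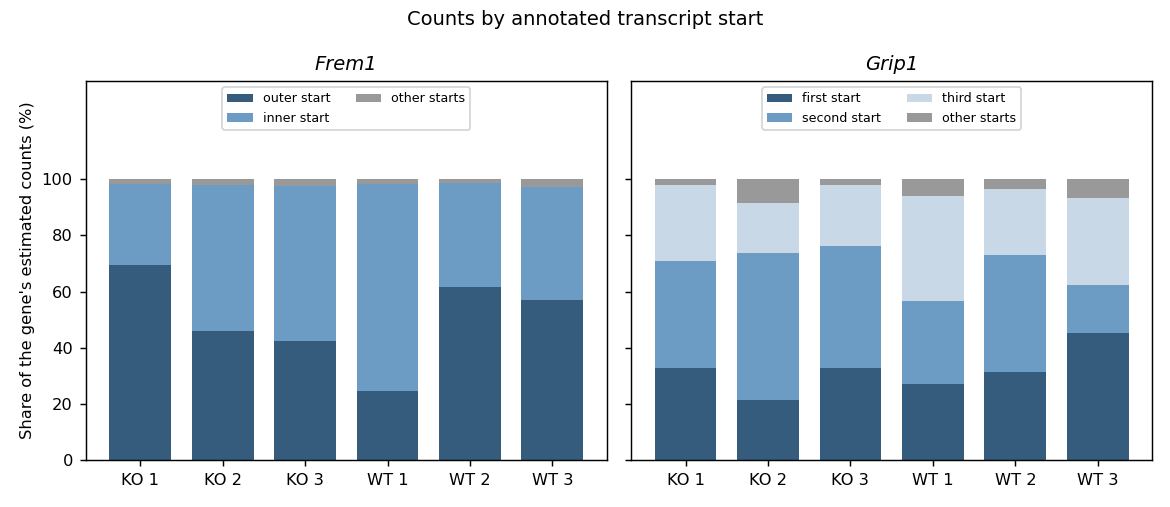
Share of the estimated counts of Frem1 (left) and Grip1 (right) by annotated start, in percent, 1 bar per library, with knockout (KO) libraries left of wild-type (WT) ones. The outer Frem1 start runs from 24.4% in wild-type replicate 1 to 69.3% in knockout replicate 1, and the groups overlap at each named start.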

How the data were processed

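Per the submitters' processing notes, reads were processed with FastQC and kallisto and the build was mm10. The kallisto version is not given in the sources used here. Each deposited table, per the file headers, gives the estimated count, TPM, length and effective length of 111462 transcripts, and estimated counts are not normalized. The authors' deposited comparison table gives log2 fold changes, p-values and a likelihood ratio score. Transcripts were matched to GENCODE M21 by unversioned identifier (110203 matched, and the unmatched held 0.504% to 0.566% of counts), and estimated counts and TPM were summed per gene, the counts then rounded.

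The main test of knockout over wild-type was that of edgeR 4.0.16 (R 4.3.3), quasi-likelihood test, TMM, genotype as the only term, filterByExpr (minimum count 10, minimum total 15) and Benjamini-Hochberg over 16938 genes, with calls at an FDR under 0.05. CPM use TMM-scaled library sizes. The script was tested on simulated data. DESeq2 1.42.0, limma 3.58.1 (voom, and limma-trend on log2(TPM + 0.1)), the likelihood ratio test, other scalings and filters, length offsets, a replicate block, a Y-linked term, each library left out and a test per transcript were alternatives. Of the further marker lists, the cartilage list (15 genes) had 0 positive and 15 negative log2 fold changes, at a median of -0.46, and the medians of the mesenchyme, muscle, endothelium, blood and nerve lists were 0.03, -0.04, 0.18, 0.28 and 0.26.

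Members and lists were chosen with earlier results of these data known. Genes named are the 6 members, Grhl3, every partner gene, up to 4 genes with the smallest p per other list, and the 2 genes most like each member by Pearson's r among tested genes (mean log2 CPM 1 or more); the RefSeq tables supplied promoter sequences. 1 gene that this rule names is not reported here.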

Additional observations from a re-analysis of the deposited data

How the results depend on the processing

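The counts of called members and of called partner genes were 0 under each of the 19 alternatives run per gene. Genes called overall (73 as reported) numbered 307 with scaling on the epithelium list (72 higher, 235 lower), 118 with no filter, 299 with DESeq2, 45 with limma-voom, 260 with the likelihood ratio test, 35 with limma-trend on TPM, 44 with effective length offsets and 47 with the replicate block. They numbered 10 to 206 with 1 library left out: leaving out wild-type replicates 1, 2 and 3 gave 206, 45 and 10, and leaving out knockout replicates 1 and 3 gave 17 and 22. Basement membrane genes called (0 as reported) numbered 2 with DESeq2, 2 with the likelihood ratio test, 2 with the Y-linked term and 0 to 1 with 1 library left out, the 1 on leaving out wild-type replicate 2. The cause of these differences was not tested.

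Signs of the members, none of them called, turned with scaling on the epithelium list in Fras1 (-0.27), Frem1 (-0.39), Frem2 (-0.047), Grip1 (-0.47) and Npnt (-0.48). Npnt was also -0.0043 with library totals alone, -0.037 with limma-trend, -0.066 on leaving out wild-type replicate 1 and -0.013 on leaving out knockout replicate 2, with values from -0.066 to 0.13 over all libraries left out in turn. Frem3 turned positive with the Y-linked term (0.23) and on leaving out wild-type replicate 2 (0.10) or knockout replicate 3 (0.066), its values with 1 library left out ran from -0.43 to 0.10, and it could not be fitted under the CPM filter, which it did not pass. Per transcript, Frem1-204 (-0.13), Frem1-208 (-0.29), Frem2-204 (-0.60), Grip1-204 (-0.83), Grip1-208 (-0.71), Grip1-209 (-0.54) and Npnt-201 (-0.96) went against their gene. With the Y-linked term, wild-type replicate 1 is the only wild-type library as low in Y-linked CPM as the knockout libraries, so the genotype difference rests on that 1 library. In that fit Fras1, Frem1 and Frem2 had log2 fold changes of 0.68, 0.35 and 0.87 at an unadjusted p under 0.05 (adjusted p = 0.263, 0.225 and 0.215, edgeR). Without wild-type replicate 2, Fras1 and Frem2 did so too, Fras1 at 0.50 (adjusted p = 0.299, edgeR). The Grhl3 call was lost with limma-voom, with limma-trend, with the Y-linked term and on leaving out wild-type replicate 3 or a single knockout library, at log2 fold changes of -2.22 to -3.35.

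Same-numbered knockout and wild-type libraries did not deviate together (correlations of -0.268, -0.0912 and -0.176). So few values cannot settle whether equal numbers mark paired samples. With the replicate block, 0 members were called, and Frem2 had a log2 fold change of 0.46 (unadjusted p = 0.0306, adjusted p = 0.773, edgeR). Depth limits Frem3 most, at 11 to 31 counts per library.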
